A study of Homo sapiens with 6 samples.

Results

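The 8 human genes that encode ligands of the activating receptor NKG2D were followed: ULBP1, ULBP2, ULBP3, RAET1E, RAET1G, RAET1L, MICA and MICB. They were taken by gene symbol from a table of 60649 genes, all 8 symbols were present, and they were chosen by their levels in the knockdown libraries against the control libraries. Of the 8 genes, 6 had enough counts to be fitted among 16039 tested genes; RAET1E and RAET1L did not. Because the contrast of each hairpin with the control chose the genes, their differences from the control are described here without a test.

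The RNA came from 786-O, a long-used line of human clear cell renal carcinoma, grown in RPMI-1640 with serum. The groups were shRNA1 and shRNA2, in which LINC02068, a long noncoding RNA, was targeted by a different short hairpin RNA each, and shControl, whose cells carry the control hairpin and are given the genotype WT, with 2 libraries each. The labels name no drug or other agent in any group. The sources used here do not say whether the hairpin cells were pools or clones, how they were selected, when RNA was taken after knockdown, or whether the libraries of a group came from separate cultures; p-values then cover only the spread between these libraries, which may be technical.

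NKG2D is carried by natural killer (NK) cells and some T cells, and it triggers killing and cytokine release when it meets a ligand on a target cell. The ligands are distant relatives of MHC class I proteins that are scarce on most healthy cells and appear after stress, DNA damage, infection or transformation. ULBP1, ULBP2, ULBP3 and RAET1L are held in the membrane by a lipid anchor (GPI), RAET1E, RAET1G, MICA and MICB mainly by a membrane-spanning segment, and tumour cells can release many of them by proteolytic cleavage.

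All 8 genes lie on chromosome 6 in GENCODE 29 (GRCh38), in 2 clusters, and are annotated as protein-coding. The MIC genes lie in the MHC region, with MICA at chr6:31399784-31415315 and MICB at chr6:31494881-31511124, both on the plus strand. On the long arm follow RAET1E at chr6:149883375-149898102 (minus), RAET1G at chr6:149916878-149923121 (minus), ULBP2 at chr6:149942000-149949235 (plus), ULBP1 at chr6:149964007-149973710 (plus), RAET1L at chr6:150018334-150025532 (minus) and ULBP3 at chr6:150063150-150069095 (minus).

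Below are the promoters of the genes that stood on opposite sides of the control, ULBP1 and ULBP3, and of the MIC pair, which stood on the same side. Each is the 250 bases before the start of the gene in RefSeq (GRCh38.p14), written 5′ to 3′ on the strand of the gene. They lie at chr6:149963693-149963942 (plus) for ULBP1, chr6:150069122-150069371 (minus) for ULBP3, chr6:31403345-31403594 (plus) for MICA and chr6:31497895-31498144 (plus) for MICB. The RefSeq starts of MICA and MICB lie inside the genes as GENCODE 29 draws them. Capitals mark TGACG, the core of the cyclic AMP response element, the GC box GGGCGG and the CCAAT box CCAAT, each on either strand.
ULBP1: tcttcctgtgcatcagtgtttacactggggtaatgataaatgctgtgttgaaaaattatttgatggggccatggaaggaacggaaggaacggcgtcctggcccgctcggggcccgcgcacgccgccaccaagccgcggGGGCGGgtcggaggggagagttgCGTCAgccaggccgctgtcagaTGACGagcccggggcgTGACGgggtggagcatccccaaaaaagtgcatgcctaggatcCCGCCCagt
ULBP3: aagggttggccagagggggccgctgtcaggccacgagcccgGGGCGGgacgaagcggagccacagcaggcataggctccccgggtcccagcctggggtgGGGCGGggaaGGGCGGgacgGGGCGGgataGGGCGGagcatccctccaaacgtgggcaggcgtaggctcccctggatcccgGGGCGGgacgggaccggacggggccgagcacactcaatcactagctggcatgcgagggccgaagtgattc
MICA: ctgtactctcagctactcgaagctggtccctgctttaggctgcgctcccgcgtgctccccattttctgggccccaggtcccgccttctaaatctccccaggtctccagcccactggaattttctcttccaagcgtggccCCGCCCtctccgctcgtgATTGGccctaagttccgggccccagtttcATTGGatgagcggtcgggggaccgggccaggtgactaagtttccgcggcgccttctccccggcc
MICB: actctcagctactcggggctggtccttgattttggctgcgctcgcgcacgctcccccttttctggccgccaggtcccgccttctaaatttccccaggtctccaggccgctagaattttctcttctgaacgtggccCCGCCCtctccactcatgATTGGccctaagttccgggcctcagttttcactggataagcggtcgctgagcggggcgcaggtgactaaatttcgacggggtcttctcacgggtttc

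The ULBP1 promoter held 3 copies of TGACG, starting 89, 67 and 51 bases before the gene, and 2 GC boxes, 112 and 9 bases before it. The ULBP3 promoter held no TGACG and 6 GC boxes, 4 of them 10 bases apart between 151 and 121 bases before the gene. ULBP2, which is not printed, also held 3 copies of TGACG, and no other ligand promoter held any. Unlike ULBP1, ULBP2 was not lower than the control (log2 fold change 0.37 ± 0.23, SE, mean of both hairpins). A link between these motifs and the levels was not tested. Among the 34943 promoters of the same table and length, 21.2% held TGACG, 42.5% a GC box and 32.0% a CCAAT box.

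MICA held 1 GC box and 2 CCAAT boxes and MICB 1 of each, while the ULBP1, ULBP3 and RAET1L promoters held no CCAAT box. The box was not confined to the MIC genes. ULBP2 and RAET1G held 1 CCAAT box each, and the 3 RAET1E promoters held 1, 0 and 2. In a global alignment without a penalty for end gaps, the MICA and MICB promoters were identical over 84.0% of their 250 bases. For ULBP1 and ULBP3 it was 27.6%, because only 84 bases of that pair were aligned, against 245 of the MIC pair. Other pairs within the ULBP and RAET1 genes ranged from 2.0% (ULBP3 and RAET1E) to 61.6% (ULBP2 and RAET1G). ULBP2 shared 54.0% with ULBP1 and 57.6% with ULBP3. Of the aligned bases alone, 82.1% were identical for ULBP1 and ULBP3 and 85.7% for MICA and MICB. The full element TGACGTCA was in none of the ligand promoters and in 1.63% of all promoters. The amino acid response element TGATGNAA, through which ATF4 can act, was likewise in none and in 3.15% of all, and the heat shock unit TTCNNGAA was in 1 of the 3 RAET1E promoters only and in 6.62% of all. These searches describe letters in a fixed window and show no binding.

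The libraries held 15376448 to 37311846 counts. Scaling factors (TMM, trimmed mean of M values) were 0.960 to 0.969 in the 4 hairpin libraries and 1.07 to 1.08 in the 2 shControl libraries. The first principal component, 55.3% of the variance, separated hairpins from control, and the second, 15.1%, set shRNA1 replicate 1 apart. LINC02068 itself had 9 and 2 counts in shRNA1, 17 and 10 in shRNA2, and 20 and 32 in shControl. Its log2 fold change for the mean of both hairpins was -1.46 ± 0.59 (SE; adjusted p = 0.0447 by edgeR's quasi-likelihood test), a call lost in 7 of 12 alternative settings, where the adjusted p reached 0.219. All 8 renal and 786-O line markers were expressed. VIM stood at 5899 to 5971 CPM (counts per 1e6 of the scaled library size) in the hairpin libraries and 5142 to 5151 CPM in shControl. Of the 8, 6 rose, EPAS1 fell by 0.96 ± 0.03 on the log2 scale (adjusted p = 3.59e-13, edgeR) and CA9 was not called. The share called was 87.5%, where 57.5% of all tested genes were called, 28.6% higher and 28.9% lower (edgeR, adjusted p under 0.05). The call of PAX8 was lost in 4 settings, and with total-count scaling 4 markers rose and 1 fell. Of 13 NK and T cell markers, 7 had no count in any library, PTPRC, CD3E and NCR1 among them, and their summed level was 0 to 0.556 CPM in the hairpin libraries and 0.642 to 0.751 CPM in shControl. KLRK1, the gene of NKG2D, had 2 counts in all, both in 1 shRNA2 library. Most of the summed level came from KLRC1, with 34 counts in all. It stood at 0.389 CPM in shRNA2 replicate 1, 0.536 and 0.357 CPM in shControl, and 0 in the other libraries.

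ULBP1 was lower in every hairpin library than in either control library. It stood at 0.336 and 0.314 CPM in shRNA1, 0.917 and 1.10 CPM in shRNA2, and 9.87 and 9.35 CPM in shControl. The counts behind these levels were 5 and 6, 33 and 23, and 184 and 262. The highest hairpin library, with a 95% exact Poisson interval of 0.698 to 1.65 CPM, lay far below the lowest control library, with 8.25 to 10.5 CPM; these intervals cover counting error only. In bulk RNA, fewer cells with the transcript and less of it per cell cannot be told apart. The mean level was 14.4-fold lower in the hairpin libraries than in shControl, 29.6-fold lower in shRNA1 and 9.53-fold lower in shRNA2. The log2 fold change was -4.87 ± 0.33 for shRNA1 and -3.26 ± 0.27 for shRNA2 (SE), and leaving out any library kept the mean of both between -4.13 and -4.00.

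ULBP3 stood on the other side of the control. Its levels were 17.9 and 21.0 CPM in shRNA1, 19.6 and 19.0 CPM in shRNA2, and 5.10 and 7.38 CPM in shControl, from 267 and 401, 704 and 397, and 95 and 207 counts. Every hairpin library was above both control libraries, and the control libraries differed from each other by more than the hairpin libraries did in proportion. The mean was 3.10-fold higher in the hairpin libraries, with log2 fold changes of 1.62 ± 0.16 for shRNA1 and 1.61 ± 0.16 for shRNA2. Without shControl replicate 2 the mean of both hairpins was 1.92, and without shControl replicate 1 it was 1.38.

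ULBP2, a GPI-anchored ligand found in both membrane-bound and shed form, differed little. It had 3.16 and 3.40 CPM in shRNA1, 3.39 and 3.40 CPM in shRNA2, and 2.84 and 2.35 CPM in shControl. The hairpin libraries were all higher and closer to one another than the control libraries were. The log2 fold change was 0.34 ± 0.27 for shRNA1 and 0.39 ± 0.26 for shRNA2. The mean of both, 0.37 ± 0.23, was 0.22 without shControl replicate 2 and 0.21 when libraries were scaled by total counts, where the groups overlapped. About 32.2% of the 50-base words in its transcripts are shared with RAET1L or RAET1G, and how reads matching several genes were counted is not given in the sources used here.

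RAET1G, a ligand with a membrane-spanning form, showed no separation between the groups. Its levels were 1.28 and 1.67 CPM in shRNA1, 0.973 and 2.11 CPM in shRNA2, and 1.07 and 1.57 CPM in shControl. The shRNA2 libraries differed from each other by more than any group means did, and the log2 fold change of 0.16 ± 0.40 for the mean of both hairpins changed to -0.16 without shRNA2 replicate 2 and to -0.08 without shControl replicate 1. RAET1G overlaps the antisense gene RAET1E-AS1, which was counted in 2 rows, with 0 to 5 and 0 to 1 counts per library. The strand setting of the counting is not given, so it is unknown how reads in the overlap were assigned.

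RAET1E, the membrane-spanning ligand also named ULBP4, was at the edge of detection. It had 0 and 10 counts in shRNA1, 11 and 7 in shRNA2, and 7 and 5 in shControl, which is 0 to 0.523 CPM in the hairpin libraries and 0.178 to 0.376 CPM in shControl. The groups overlapped, and 33.3% of its 50-base words are shared, nearly all with AL355312.5, a gene that overlaps it on the same strand. RAET1E-AS1 overlaps RAET1E too, on the opposite strand. RAET1L had no count in any of the 6 libraries, which allows up to 0.202 CPM in the shallowest and 0.0834 CPM in the deepest library (3 counts).

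MICA, a highly polymorphic stress-inducible ligand, was slightly higher in the hairpin libraries. It stood at 12.9 and 11.7 CPM in shRNA1, 13.6 and 13.3 CPM in shRNA2, and 10.7 and 9.27 CPM in shControl. The groups did not overlap, and the lowest hairpin library, shRNA1 replicate 2, was close above the highest control library. The log2 fold change was 0.30 ± 0.14 for shRNA1 and 0.43 ± 0.14 for shRNA2, and the mean of both was 0.37 ± 0.12, or 1.29-fold higher. With scaling by total counts the mean of both was 0.21 and the groups overlapped, and without shControl replicate 2 the difference for shRNA1 was 0.19. MICA overlaps HCP5, a noncoding gene on the same strand that had 4 to 10 counts per library.

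MICB, the close relative of MICA, was low throughout and higher in the hairpin libraries. It had 2.82 and 1.26 CPM in shRNA1, 2.22 and 2.15 CPM in shRNA2, and 0.966 and 0.927 CPM in shControl, from 42 and 24, 80 and 45, and 18 and 26 counts. All hairpin libraries were above both control libraries, with shRNA1 replicate 2 nearest to them. The mean was 2.23-fold higher, with log2 fold changes of 1.08 ± 0.43 for shRNA1 and 1.21 ± 0.42 for shRNA2. The shRNA1 value rests on replicate 1, the library that stood apart on the second component: it was 0.43 without it and 1.59 without replicate 2.

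**Figure D1:**
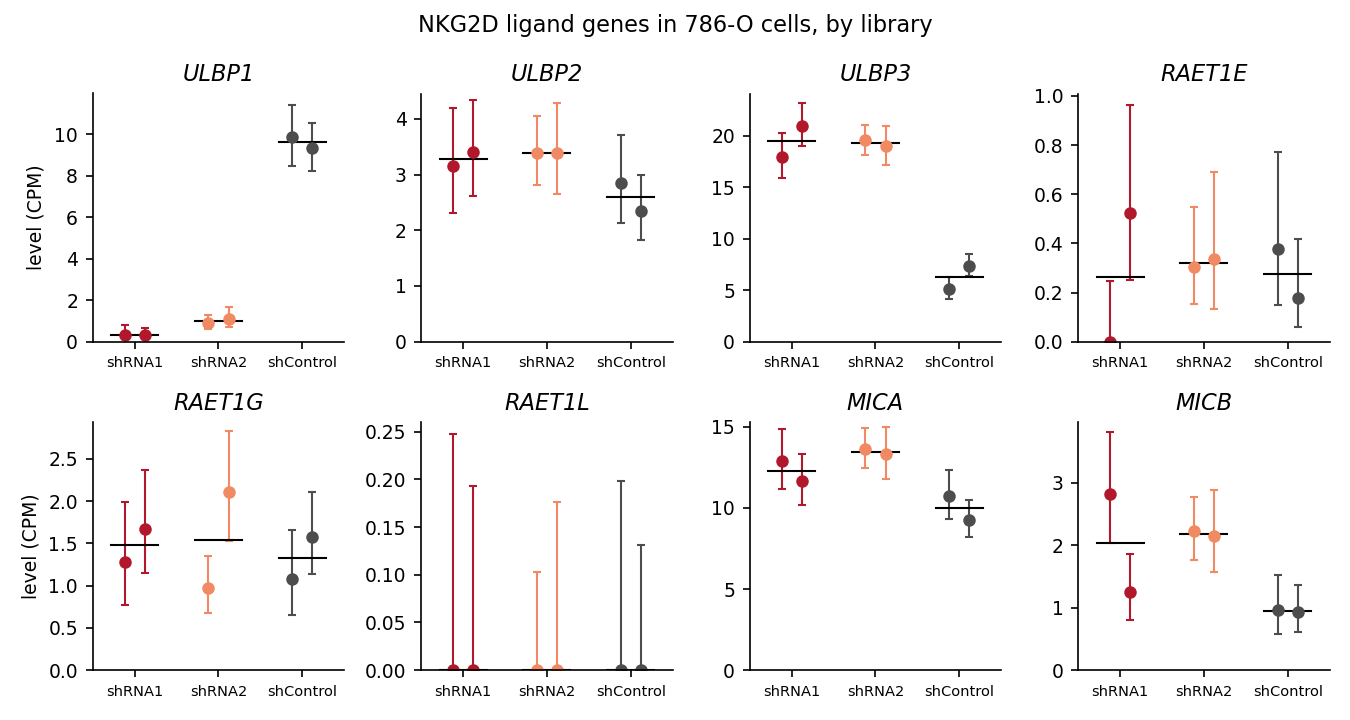
Level of each ligand gene in CPM (vertical axis, from 0, its own scale per gene) in the shRNA1, shRNA2 and shControl libraries; each point is 1 library. ULBP1 lies at 0.314 to 1.10 CPM in the hairpin libraries and 9.35 to 9.87 CPM in shControl, ULBP3 lies on the opposite side, and RAET1L is at 0 in all 6 libraries.

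Counted over the 8 genes, all 4 hairpin libraries lay outside both control libraries for 5 genes, ULBP1 below and ULBP2, ULBP3, MICA and MICB above. Of the 16039 tested genes, 67.0% were separated in the same way, 32.7% above and 34.2% below; since this contrast chose the ligands, nothing is read from the count. With scaling by total counts 3 genes were separated, ULBP1, ULBP3 and MICB. That scaling moved the median log2 fold change of all tested genes to -0.18, against -0.03 with TMM scaling.

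**Figure D2:**
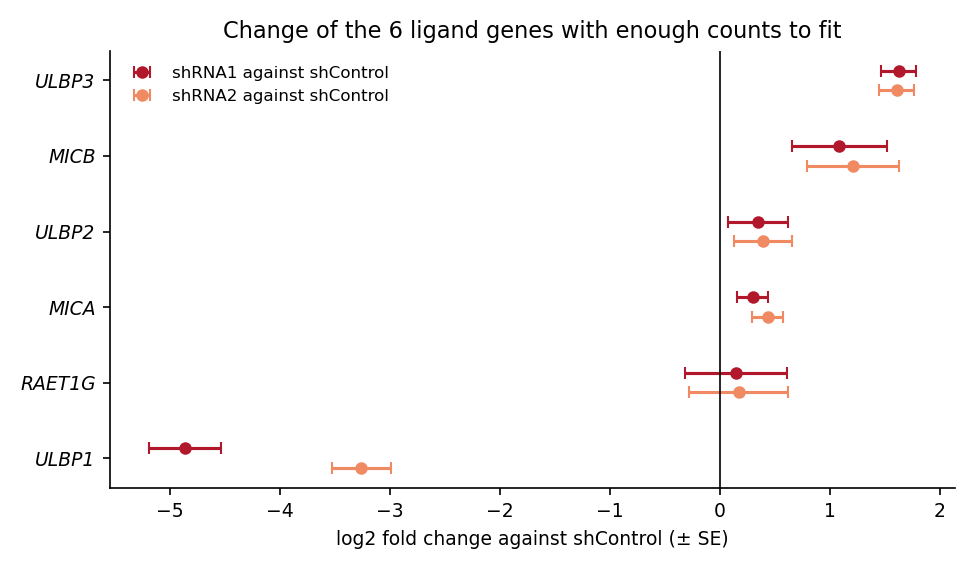
Log2 fold change (horizontal axis) of the 6 fitted ligand genes in shRNA1 and in shRNA2, each against shControl; bars are 1 SE and the vertical line marks no difference. ULBP1 lies near -4.87 and -3.26, ULBP3 near 1.62 and 1.61, and RAET1G, with its wide bars, lies across 0.

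The contrast between the hairpins did not choose the genes and could be tested. No ligand gene passed an adjusted p of 0.05 in edgeR's quasi-likelihood test of shRNA1 against shRNA2, where 0.0312% of tested genes did, and none passed it with DESeq2 or in any other setting tried. At an unadjusted p of 0.05 in the same test, 1 of the 6 ligand genes, ULBP1, and 873 of the 16039 tested genes passed. ULBP1 was lower in both shRNA1 libraries than in both shRNA2 libraries, by -1.61 ± 0.38 on the log2 scale (adjusted p = 0.576 by edgeR's quasi-likelihood test over all genes). The unadjusted value of that fit across all genes was 0.000692. Over the alternative settings this adjusted p ranged from 0.0552, with no filter on low counts, to 1.00 with DESeq2. The other 5 differed by -0.14 to 0.01 with SEs of 0.14 to 0.46. MICB (-0.12 ± 0.40) ranged from -0.80 to 0.36 and RAET1G (-0.02 ± 0.46) from -0.50 to 0.60 as single libraries were left out, so no direction is given for either. Both hairpins were set against the same control libraries, so the likeness of their differences from it is no separate evidence.

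Levels of different genes were compared per kilobase of exon in GENCODE 29. In shRNA1 the order was ULBP3 (19.7 ± 2.2 CPM per kb), MICA (5.15 ± 0.37), ULBP2 (2.43 ± 0.13), RAET1G (0.993 ± 0.189), MICB (0.729 ± 0.396), ULBP1 (0.103 ± 0.005), RAET1E (0.0870 ± 0.1231) and RAET1L at 0 (SD, n = 2). In shRNA2 it was the same, with ULBP3 at 19.5 ± 0.4, MICA at 5.65 ± 0.10, ULBP2 at 2.52 ± 0.003, RAET1G at 1.04 ± 0.54, MICB at 0.782 ± 0.018, ULBP1 at 0.321 ± 0.041 and RAET1E at 0.107 ± 0.007 CPM per kb. In shControl ULBP1 stood directly after ULBP3 (6.32 ± 1.64) and MICA (4.19 ± 0.43), at 3.06 ± 0.12 CPM per kb, followed by ULBP2 (1.93 ± 0.26), RAET1G (0.889 ± 0.236), MICB (0.338 ± 0.010) and RAET1E (0.0922 ± 0.0464). The libraries of RAET1G and MICB overlapped in both hairpin groups, and in shRNA1 those of ULBP1 and RAET1E, and of RAET1E and RAET1L, did too; all other neighbours in the order were apart.

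ULBP1 made up 0.356 ± 0.040% of the summed per-kilobase level of the 8 genes in shRNA1, 1.07 ± 0.14% in shRNA2 and 18.2 ± 1.8% in shControl (SD, n = 2). ULBP3 made up 67.4 ± 3.2%, 65.2 ± 1.5% and 37.3 ± 7.5% in the same groups. The summed level was 27.9 and 30.5 CPM per kb in shRNA1, 29.9 and 30.0 in shRNA2, and 16.1 and 17.5 in shControl. The summed level was thus higher in every hairpin library although its ULBP1 part was smaller.

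These shares depend on the length taken for ULBP3. GENCODE 29 gives it 988 bases of exon, and RefSeq draws the gene 2123 bases longer. In an alternative added after the data were seen, genes were lengthened to RefSeq ends that lay further out, with the added bases counted as exon. No gene was shortened, so MICA and MICB kept their lengths. ULBP3 then stood at 6.25 CPM per kb in shRNA1, 6.20 in shRNA2 and 2.01 in shControl. In shControl it ranked after MICA and ULBP1 and overlapped ULBP2. Its share was then 39.7% in shRNA1, 37.4% in shRNA2 and 16.2% in shControl, and that of ULBP1 was 0.643%, 1.89% and 24.1%. The summed level was 15.5 and 16.0 CPM per kb in shRNA1, 16.3 and 16.8 in shRNA2, and 12.5 and 12.4 in shControl, still apart.

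**Figure D3:**
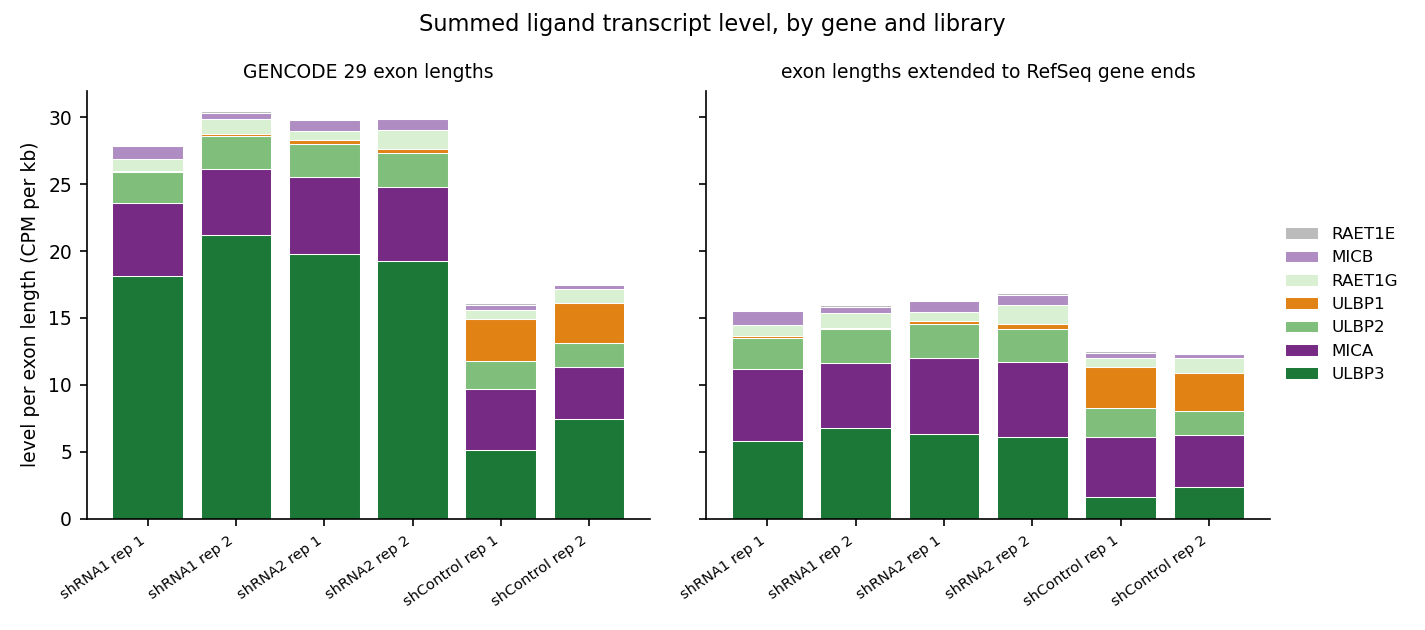
Summed level of the ligand genes per exon length (vertical axis, CPM per kb), stacked by gene, in each of the 6 libraries, with exon lengths from GENCODE 29 in the left panel and gene ends extended to RefSeq in the right panel. ULBP1 averages 1.89% or less of the level in either hairpin group in both panels, and 18.2% (left) or 24.1% (right) in shControl.

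For each ligand gene with a mean of at least 1 CPM, the genes nearest in pattern were sought among 13740 genes over the 6 libraries, as the Euclidean distance between centred log2 levels, where 0 is an identical pattern. Nearest to ULBP1 were ALDH1L2, a mitochondrial folate enzyme (distance 1.20), ITPKA, an inositol trisphosphate kinase (1.34), and NOG, a secreted antagonist of bone morphogenetic proteins (1.38). ALDH1L2 had 5.78 and 5.60 CPM in shRNA1, 8.28 and 8.80 CPM in shRNA2, and 62.1 and 59.5 CPM in shControl. Like ULBP1 it was lowest in shRNA1, and its fold was smaller. Nearest to ULBP3 were ATP5MC1, a subunit of the mitochondrial ATP synthase (0.165), the pseudogene ACTBP11 (0.204) and CDC25A, a cell cycle phosphatase (0.227). ATP5MC1 had 41.1 and 46.7 CPM in shRNA1, 42.8 and 46.1 CPM in shRNA2, and 11.3 and 15.4 CPM in shControl.

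STING1, the adaptor of cytosolic DNA sensing, was nearest to ULBP2 (0.0476), ORMDL2, a regulator of sphingolipid synthesis, to MICA (0.0799), and CCDC65 to MICB (0.235). CCDC65 shared with MICB the higher level in shRNA1 replicate 1, with 2.08 and 0.889 CPM in shRNA1, 1.75 and 1.63 CPM in shRNA2, and 0.751 and 0.820 CPM in shControl. The gene nearest to RAET1G, CTD-2035E11.4, was at a distance of 0.316.

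Genes reported to regulate the ligands went in both directions. Of 22 such genes tested, 7 rose, 9 fell and 6 were not called in the mean of both hairpins, where 57.5% of all tested genes were called, 28.6% higher and 28.9% lower (edgeR, adjusted p under 0.05). Their median log2 fold change was -0.01, against -0.03 over all genes, and with total-count scaling 4 rose and 12 fell. This list and the other gene lists were chosen with earlier results of these data known. Their calls and p-values therefore describe the genes and are no independent evidence.

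ATF4, a stress-response transcription factor reported to drive ULBP1, had 199 and 222 CPM in shRNA1, 201 and 214 CPM in shRNA2, and 405 and 414 CPM in shControl. It fell by 0.97 ± 0.04 on the log2 scale (adjusted p = 2.04e-10, edgeR). DDIT3, a transcription factor that ATF4 induces, had 7.86 and 9.36 CPM in shRNA1, 9.98 and 8.47 CPM in shRNA2, and 30.3 and 32.2 CPM in shControl, and fell by 1.81 ± 0.11 (adjusted p = 1.09e-09). MYC, reported to influence ligand expression in tumour cells, fell by 0.91 ± 0.03 (adjusted p = 8.49e-13), with every hairpin library at 235 to 245 CPM and shControl at 447 and 456 CPM. For all of these genes the hairpin libraries lay below both control libraries.

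E2F1 and E2F2 are cell cycle transcription factors, and in mice E2F factors drive the Raet1 ligand genes. E2F1 had 44.2 and 43.2 CPM in shRNA1, 46.4 and 50.2 CPM in shRNA2, and 23.7 and 24.8 CPM in shControl, and rose by 0.92 ± 0.07 (adjusted p = 3.10e-08, edgeR). E2F2 rose by 1.04 ± 0.11 (adjusted p = 1.13e-06). ATR, a kinase of the DNA damage response that induces NKG2D ligands, rose by 0.79 ± 0.09 (adjusted p = 1.65e-06, edgeR). It had 28.7 to 35.6 CPM in the hairpin libraries and 18.0 to 18.4 CPM in shControl. Other kinases of that response on the list did not rise. ATM fell by 0.54 ± 0.07 (adjusted p = 7.35e-06, edgeR) and CHEK2 by 0.97 ± 0.11 (adjusted p = 2.24e-06). CHEK1 was not called (-0.17 ± 0.08, adjusted p = 0.0904, edgeR), a result that changed in 4 settings. HSF1, the heat shock factor, did not pass (0.08 ± 0.06, adjusted p = 0.353), but did without shRNA2 replicate 2 (0.13, adjusted p = 0.0131), and its sign changed with total-count scaling.

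Of 8 tested genes for the cleavage and release of the ligands, 1 rose, 4 fell and 3 were not called, with a median log2 fold change of -0.09. The share called, 62.5%, was near the 57.5% of all tested genes. ADAM9, a membrane protease reported to shed MICA, had 150 and 144 CPM in shRNA1, 147 and 154 CPM in shRNA2, and 276 and 276 CPM in shControl, and fell by 0.89 ± 0.03 (adjusted p = 7.44e-12, edgeR). MMP2 fell by 0.47 ± 0.03 (adjusted p = 1.31e-09). PDIA6, a disulfide isomerase that takes part in MICA shedding, fell by 0.11 ± 0.03, and MMP14 by 0.12 ± 0.03, a call lost without shControl replicate 2 (adjusted p = 0.0757). TIMP1, an inhibitor of metalloproteases, rose by 0.14 ± 0.04 (adjusted p = 0.00694), a call lost with total-count scaling, where its value was -0.01, and without shControl replicate 1, where it was 0.10. The sheddases ADAM10 (-0.07 ± 0.03, adjusted p = 0.0521) and ADAM17 (-0.04 ± 0.05, adjusted p = 0.521) and the inhibitor TIMP2 (0.02 ± 0.03, adjusted p = 0.579) did not pass. ADAM10 passed with replicate number as a block (adjusted p = 0.0437, edgeR), with a stricter low-count filter (0.0113), without shRNA2 replicate 1 (0.0369) and with total-count scaling. With total-count scaling no gene of this list rose and 7 fell.

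Of 27 tested genes for the assembly and attachment of GPI anchors, 4 rose, 13 fell and 10 were not called, with a median log2 fold change of -0.24; with total-count scaling 3 rose and 16 fell. The share called, 63.0%, was near the 57.5% of all tested genes, of which 28.6% were called higher and 28.9% lower. PIGF, which takes part in adding ethanolamine phosphate to the anchor, had 3.70 and 5.07 CPM in shRNA1, 5.59 and 3.83 CPM in shRNA2, and 18.5 and 15.2 CPM in shControl. It fell by 1.87 ± 0.17 (adjusted p = 2.04e-07, edgeR), and its partner PIGO fell by 0.81 ± 0.06 (adjusted p = 1.65e-08). PIGP, of the enzyme for the first step, fell by 1.50 ± 0.13 (adjusted p = 1.21e-07), PIGL, of the second step, by 1.17 ± 0.16 (adjusted p = 1.04e-05), and PIGV, a mannosyltransferase, by 0.97 ± 0.09 (adjusted p = 2.12e-07). PIGQ, of the first-step enzyme with PIGP, rose by 0.40 ± 0.04 (adjusted p = 1.46e-06).

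Ligands of other NK cell receptors were tested alongside: of 11 genes, 2 rose, 7 fell and 2 were not called, with a median log2 fold change of -0.23; over all tested genes 57.5% were called, 28.6% higher and 28.9% lower. PVR, which is bound by the activating receptor DNAM-1, had 368 and 370 CPM in shRNA1, 383 and 385 CPM in shRNA2, and 611 and 619 CPM in shControl, and fell by 0.71 ± 0.03 (adjusted p = 5.75e-12, edgeR). NECTIN2, another DNAM-1 ligand, rose by 0.31 ± 0.04 (adjusted p = 6.46e-06). TNFSF10, the death ligand TRAIL, fell by 0.44 ± 0.03 (adjusted p = 4.89e-09), CD58, the adhesion ligand of CD2, by 0.81 ± 0.12 (adjusted p = 2.60e-05), and CLEC2D, the ligand of the inhibitory receptor KLRB1, by 1.49 ± 0.27 (adjusted p = 0.000206). BAG6, a ligand of NKp30 that lies in the MHC region, rose by 0.84 ± 0.07 (adjusted p = 6.12e-08), whereas the other NKp30 ligand on the list, NCR3LG1 (0.71 ± 0.35, adjusted p = 0.0967), and HLA-E (-0.14 ± 0.13, adjusted p = 0.394) did not pass. NCR3LG1 passed without shRNA1 replicate 1 (0.99, adjusted p = 0.00782, edgeR), and HLA-E changed sign without shControl replicate 2 (0.03).

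**Figure D4:**
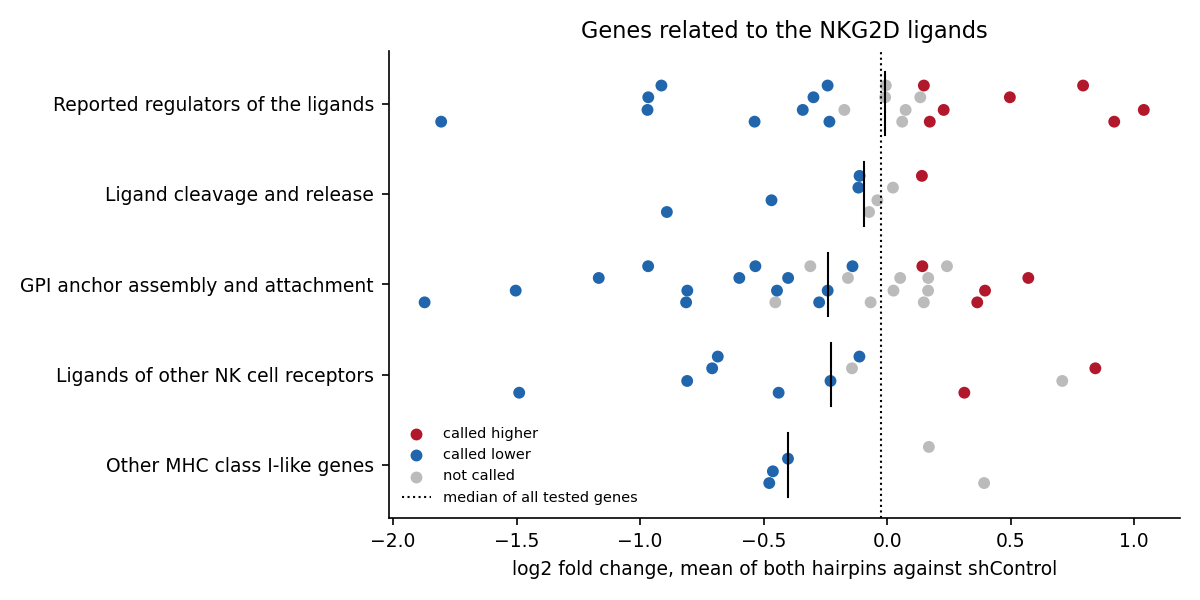
Log2 fold change for the mean of both hairpins against shControl (horizontal axis) of each tested gene in the lists of related genes, 1 point per gene, coloured by whether it was called higher, called lower or not called at an adjusted p of 0.05. The dotted line is the median of all tested genes, -0.03; the GPI anchor list has a median of -0.24 and the regulator list one of -0.01.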

How the data were processed

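The authors deposited 1 table of raw counts, whole numbers for each gene in 6 libraries. RNA was taken up in TRIzol and sequenced in paired-end mode, per the labels. The tools named in the submitters' processing notes are FastQC 0.11.9, Trim Galore 0.6.7, HISAT2 2.2.1 and StringTie 2.2.1, with the build hg38. Not given in the sources used here are the counting tool, the annotation release, the strand setting and the handling of reads that match several genes, which bear on genes with overlapping or near-identical copies.

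Ligand genes and lists were chosen with earlier results of these data known. Genes passing filterByExpr by group (16039) were scaled by TMM and fitted with edgeR 4.0.16 (R 4.3.3; quasi-likelihood, robust, no intercept, all 6 libraries sharing dispersions), with Benjamini-Hochberg adjustment over all genes and a threshold of 0.05. The SE of a log2 fold change is its size over the square root of F. The scripts were tested on simulated data. Alternatives were DESeq2 1.42.0, other scalings and filters, replicate number as a block, and leaving out each library. Libraries with the same replicate number did not deviate together (r = 0.00367, 0.00853 and -0.0606), so the number was not used as a pairing. Single levels carry exact Poisson intervals at 95%, and the floor is 3 counts. GENCODE 29 holds 58381 of the gene IDs (96.3%), and exon lengths are unions of its exons. Promoters are from RefSeq (GRCh38.p14), and all 8 ligand genes matched. Beside the ligand genes, the text names LINC02068 and the called genes of each list of related genes, at most the 6 of smallest p. Of the regulators it names ATM and CHEK2 as well. It also names some markers and the called protein-coding neighbours within 200 kb of a ligand gene. Of the genes nearest in pattern it names 3 for ULBP1 and ULBP3 and 1 for each other ligand gene. The markers, the ligand genes given 3 pattern genes, ATM, CHEK2 and the list genes that were not called were chosen after their values were seen.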

Additional observations from a re-analysis of the deposited data

How the results depend on the processing

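The number of genes called in the mean of both hairpins against shControl was 9223 and lay between 7557 and 9426 in the other settings (9170 with the replicate block). With total-count scaling 36.0% of the calls were higher, against 49.7% with TMM. Between shRNA1 and shRNA2, 5 genes were called (ELOCP2, CTD-2192J16.20, LA16c-431H6.6, UGT1A9 and CPT1B, chosen after their values were seen), against 69 with no filter on low counts, 9 with the replicate block, 17 with DESeq2, 16 with only the groups compared, and 12 to 31 with 1 library left out; the cause was not tested. No ligand gene was among the calls in any setting. The replicate block changed no other call count by over 1.5 times. With total-count scaling 3 ligand genes were separated from shControl in place of 5. None of the 13 NK and T cell markers passed the low-count filter, so their 0 calls say nothing about a difference. With no low-count filter 6 of these markers were tested and 1 was called lower. With 1 library left out, at most 1 marker was tested. Its log2 fold change for the mean of both hairpins ran from -3.28 without shRNA2 replicate 2 to -6.19 without shRNA2 replicate 1. RAET1G changed sign: its value was -0.05 for shRNA1 without shRNA1 replicate 2, -0.16 for the mean and -0.46 for shRNA2 without shRNA2 replicate 2, and -0.08 for the mean, -0.091 for shRNA1 and -0.07 for shRNA2 without shControl replicate 1; with 1 library left out it reached 0.47 for the mean, 0.46 for shRNA1 and 0.65 for shRNA2. The other fitted ligand genes kept their direction in every setting. Depth limits RAET1E, RAET1G and MICB, with at most 80 counts in any library, and ULBP1 in shRNA1, with 5 and 6 counts; with 2 libraries per group, SEs lean on dispersions shared across genes.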

Other observations

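Of 5 tested MHC class I-like genes outside the ligand family, 3 fell and none rose, with a median log2 fold change of -0.40; the share called, 60.0%, was near the 57.5% of all tested genes. PROCR, the endothelial protein C receptor, fell by 0.40 ± 0.07 (adjusted p = 0.000144, edgeR), MR1, which presents vitamin B metabolites to T cells, by 0.48 ± 0.11 (adjusted p = 0.00139), and FCGRT, the neonatal Fc receptor, by 0.46 ± 0.13 (adjusted p = 0.00684), a call lost without shControl replicate 1 (adjusted p = 0.0920). HFE and CD1D did not pass.

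Among protein-coding genes within 200 kb of MICA or MICB, 13 were tested: 3 rose, 4 fell and 6 were not called, a share near the 57.5% called over all tested genes. HLA-B had 243 and 236 CPM in shRNA1, 243 and 218 CPM in shRNA2, and 388 and 378 CPM in shControl, and fell by 0.70 ± 0.04 (adjusted p = 1.14e-09, edgeR). HLA-C fell by 0.72 ± 0.06 (adjusted p = 7.64e-05). These classical MHC class I genes, which present peptides to T cells, were thus lower where MICA and MICB stood higher. The other called neighbours of the MIC genes went both ways. NFKBIL1 (-0.68 ± 0.15) and ABHD16A (-1.54 ± 0.33) fell too. PRRC2A (0.33 ± 0.07), BAG6 (0.84 ± 0.07) and CSNK2B (0.43 ± 0.10) rose, in the same direction as MICA and MICB. The value of CSNK2B was 0.28 without shControl replicate 2. Of the 6 genes tested near the ULBP cluster, PCMT1 rose, LATS1, LRP11 and PPP1R14C fell, and 2 were not called. LATS1, a kinase of the Hippo pathway, had 25.7 and 22.4 CPM in shRNA1, 24.6 and 23.4 CPM in shRNA2, and 52.7 and 49.5 CPM in shControl, and fell by 1.09 ± 0.08 (adjusted p = 7.09e-09). The call of PCMT1 was lost with total-count scaling (adjusted p = 0.0698), and that of PPP1R14C, at 0.134 to 0.366 CPM in the hairpin libraries and 0.785 to 1.07 CPM in shControl, was lost in 6 settings.

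The pseudogene RAET1K, which shares 50-base words with ULBP1 and ULBP3, had 6 and 0 counts in shRNA1, 8 and 9 in shRNA2, and 12 and 19 in shControl. It was not called (-1.44, adjusted p = 0.143, edgeR), but was without shRNA1 replicate 1 (-4.03, adjusted p = 0.0167). The pseudogenes RAET1M, MICC and MICG had no count in any library.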
